A study of Mus musculus with 15 samples.

Results

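The Myc and Max network is a set of basic helix-loop-helix leucine zipper transcription factors that pair with each other and bind the E-box, a short DNA motif found near the starts of many growth genes. Myc, Mycn and Mycl activate transcription as dimers with Max, the partner they all share. Mxd1, Mxd3, Mxd4, Mxi1 and Mnt compete for Max and bring corepressors to the same sites, while Mga joins a Max-binding domain to a T-box domain and works in a Polycomb complex. In muscle precursors Myc is a growth-promoting factor that is switched down as cells leave the cell cycle to differentiate. The members described here were the 10 genes Myc, Mycn, Mycl, Max, Mxd1, Mxd3, Mxd4, Mxi1, Mnt and Mga, of 19452 genes measured, each taken from the probe sets that carry its symbol and no other. Every one of the 10 had 1 probe set on the array, so the rule of taking the brightest at 0 min made no choice.

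RNA was measured on 15 arrays (Affymetrix Mouse Gene 1.0 ST) of C2C12 cells, a mouse myoblast line (ATCC CRL-1772), each array holding the total RNA of 1 culture sample. The cells were the LKO-1 derivative, which carries an empty knockdown vector under puromycin selection, and were kept below confluence so that they stayed proliferating. All groups received actinomycin D, which blocks RNA synthesis, at 8 µg/mL, and the sample named 0 min was taken 30 min later; the groups were 0, 10, 50, 110 and 230 min after that, with 3 replicate time courses of 5 arrays each. There was no untreated group, so a level at 0 min is one already reached after 30 min of blocked transcription.

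Values are linear ratios in which each probe set was divided by the 5th percentile of its array, so 1.00 marks the dim end of the array. Probe sets differ in how brightly they respond, so levels were compared between times for 1 gene and not between genes. Of the 10 members, 9 were expressed, meaning brighter at 0 min than the median probe set of that array in 2 or more of 3 time courses, and Mycn was not, in 0 of 3. Mxd1 passed in 2 of 3. The labelled cell type was borne out by its markers: 6 of 6 myoblast genes were expressed, with Myod1 at 27.3 ± 2.74 and Des at 42.3 ± 7.73 at 0 min (SD, n = 3 arrays). Of 10 myotube genes 4 were expressed, Myog, Ckm, Acta1 and Tnnt3, and their summed level with the other 6 ranged from 26.7 to 45.2 between the 0 min arrays, most of that range being Acta1, from 6.07 to 21.7. None of 4 adipocyte markers measured was expressed (sum 5.43 to 6.37), and of 4 immune cell markers only Cd68 was (sum 7.05 to 8.35), with Ptprc at 1.30 ± 0.0651 (SD, n = 3). Over the arrays as a whole the 75th percentile ran from 7.80 to 9.81 at 0 min and from 2.89 to 4.63 at 230 min. The 110 min array of time course 1 (3.90) and the 230 min array of time course 2 (2.89) were the dimmest of their times by that measure.

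The sites that the network reads occur near the start sites of some of its own genes. The palindromic E-box CACGTG, the same on both strands, was searched in RefSeq promoter windows of assembly GRCm38.p6 that run from 250 bases before to 50 bases after a start site. Of the members, 9 had such a window. Myc had none, so its promoter was not searched. Mxi1 had 3, giving 11 windows, and the motif stood in 3 of them, those of Max, Mxd4 and Mnt. Over all windows it stood in 2349 of 32851, or 7.15%. The 3 windows are shown over 30 bases, 5′ to 3′ on the strand of the gene, with the E-box in capitals, because they show the letters that Myc-Max and Mxd-Max dimers bind.
Max, chr12:76962234-76962263, minus strand: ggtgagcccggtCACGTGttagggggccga
Mxd4, chr5:34187912-34187941, minus strand: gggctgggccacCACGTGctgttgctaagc
Mnt, chr11:74830789-74830818, plus strand: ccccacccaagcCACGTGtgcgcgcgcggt
The motif began at position -3 from the start site of the window in Max, so that it crossed that site, at -219 in Mxd4 and at -123 in Mnt. The gene records of Max and Mnt start further upstream than these start sites, at 76962323 and 74830806. A match is a description of these letters, and with transcription blocked the arrays did not measure its use.

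Myc, the activator of the network that is most studied in proliferating cells, lost most of its transcript within 50 min. At 0 min it stood at 35.07, 16.09 and 21.75 in time courses 1, 2 and 3, and at 10 min at 22.64, 8.70 and 16.27. At 50 min the values were 6.73, 4.79 and 6.81, and at 110 min 2.26, 2.25 and 3.66. At 230 min they were 2.13, 1.61 and 2.54. Every time course fell at each step, and from 50 min on all 3 arrays lay below all 3 at 0 min, while at 10 min the highest array (22.64) was still above the lowest 0 min array (16.09). Relative to its own start, Myc stood at 64.5% ± 10.4 at 10 min, 26.8% ± 6.598 at 50 min, 12.4% ± 5.37 at 110 min and 9.25% ± 2.88 at 230 min (SD, n = 3 time courses). On each of these last 6 arrays Myc was still above the median probe set, which stood at 1.59 to 1.92 at 110 min and 1.44 to 1.72 at 230 min. In RNA from a whole culture, fewer cells with the transcript and less of it per cell cannot be told apart.

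**Figure D1:**
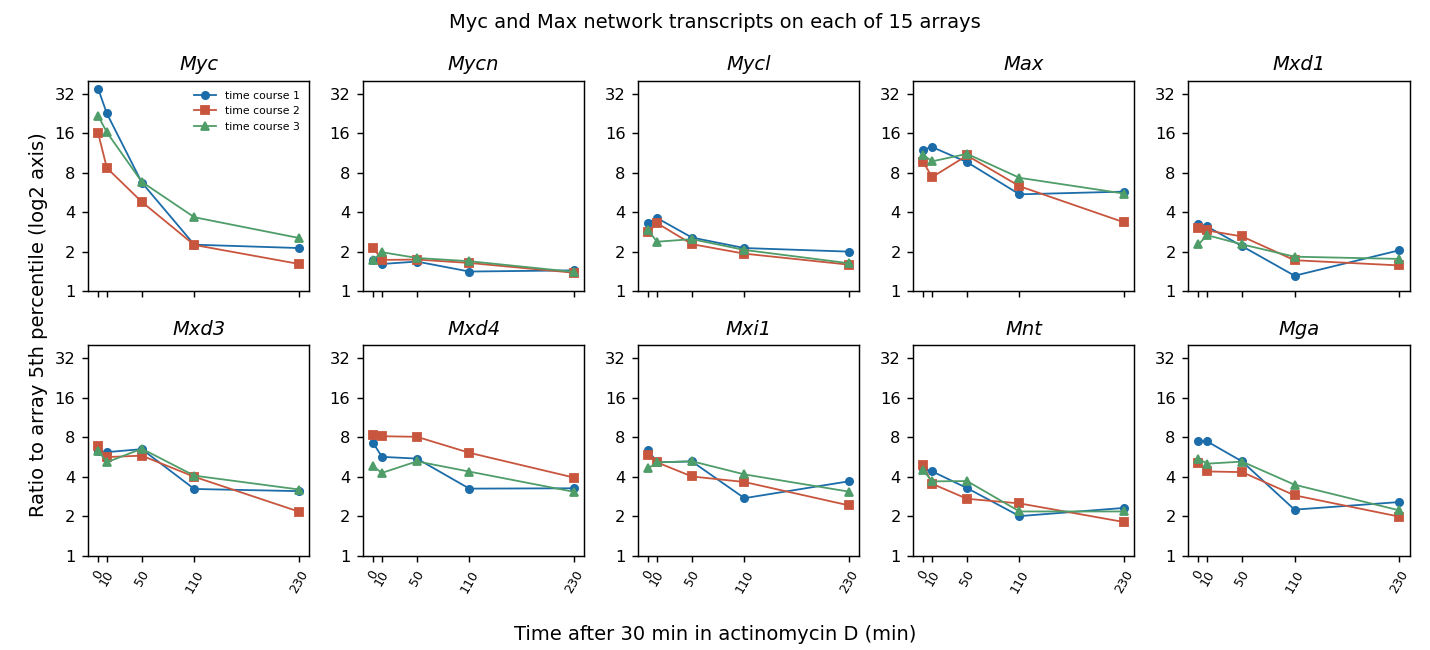
Level of each of the 10 members on each of the 15 arrays, as the ratio to the 5th percentile of the array on a log2 axis, against time in min after the 30 min in actinomycin D, with 1 line for each of 3 replicate time courses. Myc fell from between 16.09 and 35.07 to between 1.61 and 2.54, while Max stayed between 9.63 and 11.14 at 50 min and Mycn lay near the floor of 1.00 throughout.

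At 50 min the change of Myc against 0 min was -1.93 ± 0.22 log2 (SE, n = 3 arrays a time, limma adjusted p = 8.8e-11), when the median of all expressed probe sets was -0.11. It was the only one of the 9 expressed members called at that time, where 1.99% of 12544 expressed probe sets fell, and 0% of them had a lower change than Myc. At 10 min the change of Myc was -0.65 ± 0.22 (SE), with a limma adjusted p of 1.00. No member was called at 10 min and neither was any other probe set (0.00%). At an unadjusted p under 0.05 the limma fit held 131 of 12544 expressed probe sets at 10 min, of which Myc was the only member. That is a smaller share than the threshold of 0.05 itself. At 110 and 230 min the changes of Myc were -3.12 and -3.49 (SE 0.22 for both), against medians of all expressed probe sets of -0.70 and -0.91. The 4 comparisons share the 0 min arrays. Dividing arrays by another percentile shifts all probe sets of an array alike, so the place of Myc among them was the same under each scaling.

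Of the other Myc genes, Mycl started just above the median of its arrays and Mycn below it. Mycl, a paralog with a narrower tissue range, stood at 3.33, 2.82 and 2.91 at 0 min in time courses 1, 2 and 3, and at 2.56, 2.28 and 2.49 at 50 min. At 230 min it stood at 2.00, 1.59 and 1.63, which was 57.5% ± 2.24 of its start (SD, n = 3 time courses). All 3 arrays at 50 min lay below all 3 at 0 min, although the change of -0.30 ± 0.21 log2 (SE) was not called (limma adjusted p = 0.77). Mycn, the paralog best known from neural and embryonic tissue, lay below the level filter, at 1.72, 2.15 and 1.73 at 0 min and 1.44, 1.38 and 1.40 at 230 min. Its groups overlapped at 10 and 50 min and did not at 110 and 230 min. In the limma fit over all 25175 probe sets its slope was -0.10 ± 0.02 log2 per hr (SE, n = 15 arrays, adjusted p = 0.0013), where 75.8% of probe sets fell and the median slope was -0.14. With arrays divided by their median or 75th percentile that slope turned to 0.08 and 0.22. Values this near to 1.00 leave little room for a fall to show.

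Max, the partner through which the other factors bind E-boxes, was not called at 50 min and was called as fallen at 110 min, a call that rests on the scaling of the arrays. It stood at 12, 9.63 and 10.91 at 0 min in time courses 1, 2 and 3, at 12.55, 7.40 and 9.76 at 10 min and at 9.63, 10.82 and 11.14 at 50 min. These 9 arrays overlapped, and at 50 min the change was -0.04 ± 0.21 log2 (SE, limma adjusted p = 1.00), or 0.15 and 0.12 with arrays divided by their median or 75th percentile. At 110 min Max stood at 5.47, 6.31 and 7.31 and at 230 min at 5.74, 3.34 and 5.54, all below the lowest 0 min array. The change at 110 min was -0.77 ± 0.21 log2 (SE, limma adjusted p = 0.0012), -0.24 with arrays divided by their median (adjusted p = 0.41) and 0.09 with the 75th percentile (adjusted p = 0.56). Max was at 59.4% ± 12 of the start at 110 min and 44.4% ± 8.57 at 230 min (SD, n = 3 time courses). The change at 230 min was -1.19 ± 0.21 log2 (SE, limma adjusted p = 6.3e-07), and -0.02 with arrays divided by their 75th percentile (adjusted p = 0.88).

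Mnt, the Max-bound repressor that is present in most cells and opposes Myc, had all its later arrays below those at 0 min from 10 min on, and was called as fallen from 110 min. Its values in time courses 1, 2 and 3 were 4.60, 4.89 and 4.47 at 0 min, 4.39, 3.53 and 3.68 at 10 min and 3.27, 2.71 and 3.70 at 50 min. At 110 min they were 2.00, 2.50 and 2.17 and at 230 min 2.31, 1.80 and 2.17. The highest later array (4.39, at 10 min) was just under the lowest 0 min array (4.47). At 50 min Mnt was at 69.8% ± 13.7 of its start (SD, n = 3 time courses) and its change of -0.54 ± 0.21 log2 (SE) had a limma adjusted p of 0.25, although 4.94% of expressed probe sets had a lower one. Without the 110 min array of time course 1 and the 230 min array of time course 2, an alternative chosen after seeing the data, the same change had an adjusted p of 0.013. At 110 min the change was -1.07 ± 0.21 (SE, limma adjusted p = 1.0e-05), and -0.21 with arrays divided by their 75th percentile (adjusted p = 0.24).

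Mga, the large T-box and Max-binding protein of a Polycomb complex, had the lowest mean relative to its start after Myc at 230 min, though not in every time course. It stood at 7.51, 5.04 and 5.49 at 0 min in time courses 1, 2 and 3, at 5.22, 4.33 and 5.21 at 50 min and at 2.24, 2.88 and 3.47 at 110 min. At 230 min it stood at 2.56, 1.98 and 2.21, which was 37.9% ± 3.32 of its start (SD, n = 3 time courses). In time course 2 it ended at 39.3%, above Mxd3 at 31.8%, Max at 34.7% and Mnt at 36.8%. The 50 min arrays overlapped those at 0 min and the later ones did not. Its changes were -1.07 ± 0.22 log2 at 110 min and -1.40 ± 0.22 at 230 min (SE, limma adjusted p = 1.3e-05 and 8.7e-09), and -0.21 and -0.24 with arrays divided by their 75th percentile (adjusted p = 0.20 and 0.12).

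The 4 Mxd-type repressors, small Max partners that recruit the Sin3 corepressor and are linked to growth arrest and differentiation, were first called as fallen at 110 min in the values as deposited, and with arrays divided by their 75th percentile none of them fell. Mxd3, which is expressed in dividing precursors, had 6.23 to 6.79 at 0 min, 5.15 to 6.15 at 10 min and 5.78 to 6.53 at 50 min over the 3 arrays of each time. It then had 3.22 to 4.07 at 110 min and 2.16 to 3.19 at 230 min, so the 10 min arrays lay below those at 0 min and the 50 min arrays overlapped them again. Mxd4 had 4.79 to 8.26 at 0 min and 3.24 to 6.08 at 110 min, and was the only member whose 110 min arrays still overlapped those at 0 min. Time course 2 was the highest for Mxd4 at every time, at 8.26, 8.13, 8.05, 6.08 and 3.93. Mxi1, also named Mxd2, had 4.62 to 6.35 at 0 min and 2.41 to 3.69 at 230 min. Mxd1 had 2.27 to 3.26 at 0 min, 1.31 to 1.83 at 110 min and 1.57 to 2.05 at 230 min. At 230 min Mxd3 stood at 44.0% ± 10.6 of its start, Mxd4 at 52.2% ± 10.2, Mxi1 at 55.2% ± 12.9 and Mxd1 at 64.1% ± 12.9 (SD, n = 3 time courses). Over the 3 time courses these percentages overlapped from 1 gene to the next in that order. As deposited the changes at 230 min were -1.22 log2 for Mxd3, -0.96 for Mxd4, -0.89 for Mxi1 and -0.66 for Mxd1 (SE 0.21 to 0.22, limma adjusted p from 2.8e-07 to 0.0030). With arrays divided by their median only Mxd3 of these 4 was called (-0.51), and Mxd1 stood at 0.05. With the 75th percentile they were -0.05 for Mxd3, 0.21 for Mxd4, 0.28 for Mxi1 and 0.51 for Mxd1, of which the last was called as a rise (adjusted p = 0.00048).

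Counted over the 10 members, all arrays of the later time lay below all arrays at 0 min for 2 members at 10 min (Mxd3 and Mnt), 3 at 50 min (Myc, Mycl and Mnt), 9 at 110 min (all but Mxd4) and 10 at 230 min. The same held for 5.14%, 16.5%, 72.9% and 84.3% of expressed probe sets at those times. In the limma comparison with 0 min, 9 of 9 expressed members fell at 110 min, where 84.8% of expressed probe sets did, and 9 of 9 at 230 min, where 94.3% did. Without time course 2 the change of Mxd1 at 230 min was not called, at -0.52 log2 (limma adjusted p = 0.067). With arrays divided by their median 3 members fell at 110 min (17.0% of expressed probe sets did) and 5 at 230 min (28.6%). With the 75th percentile 1 member fell at each time (9.71% and 14.5%), and at 230 min 2 rose, Mycl and Mxd1 (43.9%).

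Over the whole series the slope of log2 ratio in time was fitted with the time course as a block. All 9 expressed members fell (limma adjusted p from 1.1e-16 for Myc to 0.00042 for Mxd1), and so did 96.4% of 12544 expressed probe sets. The slope of Myc was -0.87 ± 0.07 log2 per hr (SE, n = 15 arrays), against a median of -0.25 over all expressed probe sets, and 0.255% of them had a steeper one. Without the 230 min arrays the slope was -1.64 for Myc, -0.57 for Mga, -0.54 for Mnt, -0.47 for Mxd1 and -0.33 for Mycl, and the median of all expressed probe sets was -0.36. Mga followed at -0.38 ± 0.05, Mxd3 at -0.32 ± 0.05, Max at -0.32 ± 0.05 and Mnt at -0.29 ± 0.05. Mxd4 at -0.24, Mxi1 at -0.23, Mycl at -0.22 and Mxd1 at -0.20 (SE 0.05 for each) lay on the shallow side of the median. After Myc, each slope in this order was within 1.5 SE of the next. Of expressed probe sets 16.2% were steeper than Mga and 70.9% were steeper than Mxd1.

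The split between members that fell and members that did not rests on how the arrays are scaled, except for Myc and, by a narrow margin, Mga. With the array median as the divisor, where the median slope of expressed probe sets was -0.07, the 5 members Myc, Max, Mxd3, Mnt and Mga fell, and so did 37.8% of expressed probe sets. With the 75th percentile as the divisor, where that median was 0.07, Myc and Mga fell (15.7% of expressed probe sets did), and Mycl, Mxd1, Mxd4 and Mxi1 rose (50.0% did). The limma adjusted p was then 0.00011 for Myc and 0.048 for Mga, just under the threshold of 0.05. Relative to the median of all expressed probe sets the slope was -0.62 log2 per hr for Myc, -0.13 for Mga and between -0.07 and 0.05 for the other 7, whichever of these scalings was used.

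**Figure D2:**
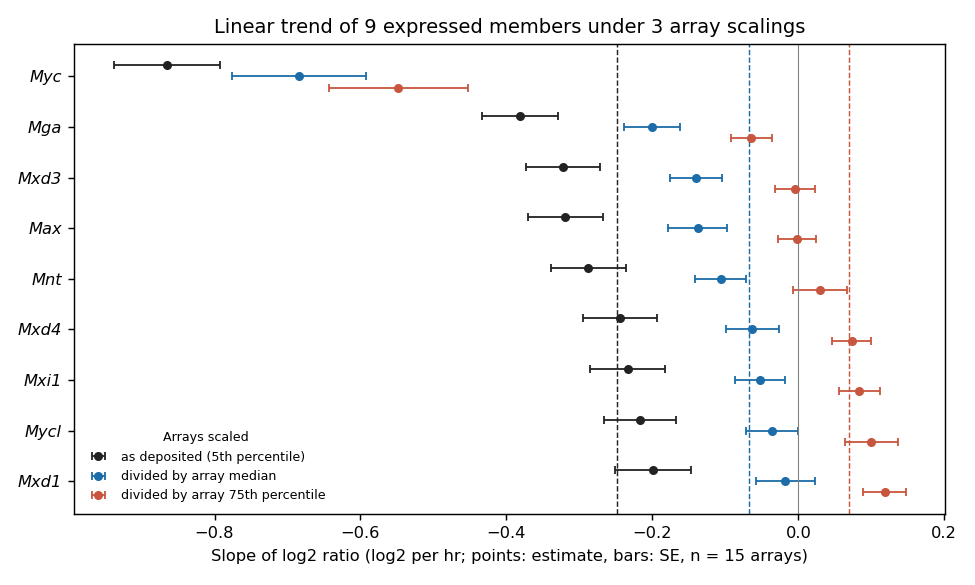
Slope of log2 ratio against time, in log2 per hr, for the 9 expressed members in order of slope; points are estimates and bars SE over 15 arrays. Colours are the values as deposited and after dividing each array by its median or 75th percentile, and dashed lines of the same colour mark the median slope of all expressed probe sets (-0.25, -0.07 and 0.07). Myc lies left of the dashed line under each scaling by 0.62, Mga by 0.13, and the other 7 lie between -0.07 and 0.05 of it.

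Half-lives, from an exponential curve fitted to the 5 ratios of each time course, set Myc apart from the rest of the network. Myc had 19.9, 27.9 and 34.3 min in time courses 1, 2 and 3, a mean of 27.4 ± 7.25 min (SD, n = 3), and Mga came next at 92.7, 170 and 182 min, a mean of 148 ± 48.6 min. The values of Myc and Mga did not overlap. A half-life was counted as reliable when, in at least 2 of 3 time courses, the p of the decay rate was under 0.05 and the 95% confidence interval was narrower than 2 times the half-life. Of the 10 members 2 met this, Myc and Mga, each in 2 of 3 time courses, against 11.2% of expressed probe sets. The interval of Myc ran from 11.3 to 33.4 min in time course 1 and from 15.6 to 73.5 min in time course 3. In time course 2 it ran from 4.23 to 136 min and was not reliable. The half-life of Myc was 70.5 min as a straight line on log2 ratios, 38.8 min with arrays divided by their 75th percentile and 40.4 min without the 0 min arrays. Of 1400 probe sets with a reliable half-life, whose median was 132 min, 0 were shorter than Myc and 866 were shorter than Mga.

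The half-lives of the other members depended on the curve and the scaling, and as fitted to the deposited ratios those of all but Mycn ran together. Mnt had 168 ± 20.3 min, Max 194 ± 44.1 min and Mxd3 196 ± 47.3 min (SD, n = 3 time courses). Mycl had 253 ± 48.0 min, Mxi1 254 ± 90.02 min, Mxd4 275 ± 138 min and Mxd1 276 ± 119 min. From Mga to Mxd1 each member overlapped the next over the 3 time courses, and the median of 12292 expressed probe sets that decayed in all 3 was 246 min. Mycn, near the floor, had 444 to 871 min, above every other member in every time course. With decay to a constant floor of 1, Mycn had 231 min, Max 168 min, Mycl 132 min, Mxd1 125 min, Mga 106 min and Mnt 96.9 min. With arrays divided by their 75th percentile Mycn, Mycl, Mxd1, Mxd4 and Mxi1 decayed in 0 of 3 time courses. Mxd3 and Mnt then decayed in 1 of 3, at 1720 and 114569 min, and Max and Mga in 2 of 3, at a mean of 8925 and 576 min. Time course 3 gave the longest half-life in 9 of 10 members, Mycn being the exception. How often this held over all expressed probe sets was not counted. The 75th percentile of all probe sets at 110 min was 5.46 in time course 3, 4.75 in time course 2 and 3.90 in time course 1. It was also highest in time course 3 at 50 min (7.84), but in time course 1 at 0, 10 and 230 min (9.81, 8.98 and 4.625). The part of these array values in the half-lives was not tested.

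**Figure D3:**
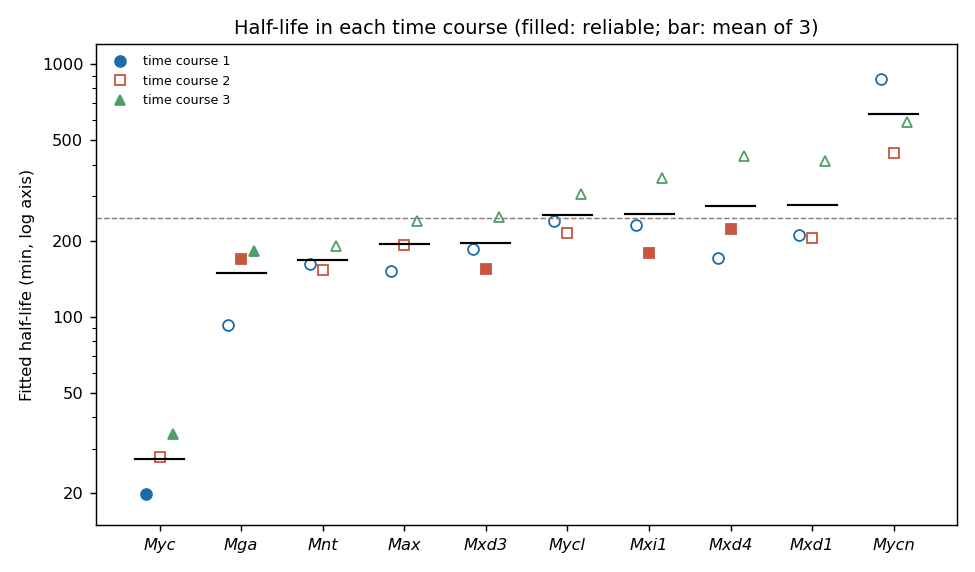
Fitted half-life in min (log axis) of the 10 members in each of 3 time courses, with filled marks where the fit met the criteria for a reliable value and a bar at the mean of 3. Myc lies at 19.9 to 34.3 min, below all other members, and the dashed line marks the median of 246 min over expressed probe sets that decayed in all 3 time courses.

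Because Max is the partner the others compete for, each member was also set against Max on the same array, a ratio that no scaling of whole arrays can change; all these ratios share the same Max values. Relative to Max, Myc had moved by -0.49 ± 0.22 log2 at 10 min, -1.90 ± 0.18 at 50 min, -2.35 ± 0.43 at 110 min and -2.30 ± 0.61 at 230 min (SD, n = 3 time courses). From 110 to 230 min it went on from -2.82 to -2.98 in time course 1 and from -1.99 to -2.12 in time course 3, and went back from -2.23 to -1.79 in time course 2. The slope of log2 of Myc over Max was -0.55 ± 0.13 log2 per hr (SE) and ran from -0.71 to -0.41 over the time courses, negative in 3 of 3. In an exact two-sided permutation test of the times within each time course it had p = 0.0022 (0.0096 adjusted over 12543 expressed probe sets, of which 11.3% fell more steeply than Max and 37.6% less steeply). Without the 230 min arrays the slope of Myc relative to Max was -1.26 log2 per hr (adjusted exact permutation p = 0.018). The adjusted exact permutation p of Myc was 0.084 without time course 1, 0.021 without time course 2 and 0.077 without time course 3.

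Of the other 7 expressed partners, none differed from Max in slope by this test. The slope relative to Max was 0.12 log2 per hr for Mxd1 (0.12 in 3 of 3 time courses, adjusted exact permutation p = 0.056), 0.10 for Mycl (0.12), 0.09 for Mxi1 (0.14) and 0.07 for Mxd4 (0.096), with the adjusted exact permutation p in brackets for the last 3. It was 0.03 for Mnt (0.66), -0.003 for Mxd3 (0.94) and -0.06 for Mga (0.19), with the same p in brackets. Mxd1, Mycl, Mxi1 and Mxd4 were positive in 3 of 3 time courses, while Mnt, Mxd3 and Mga had time courses of both signs, from -0.13 to 0.03 for Mga. On log2 of the ratio plus 1, Mxd1 and Mycl were called as falling less than Max (adjusted p = 0.015 and 0.035), and without time course 2 Mga was called as falling more (-0.11, adjusted p = 0.021), both by the exact permutation test. Mxd1 and Mycl lay near the floor, with means of 2.85 and 3.02 at 0 min against 10.8 for Max. With decay to a constant floor of 1 their half-lives were shorter than that of Max (125 and 132 min against 168 min), none of them reliable. Mycn, below the level filter, had a slope of 0.22 relative to Max (unadjusted exact permutation p = 0.00089). The mean changes of Mxd3 relative to Max lay between -0.04 and -0.003 log2 at the 4 later times, with time courses on both sides, from -0.40 to 0.37 at 50 min (SD 0.39, n = 3). Mnt dipped against Max to -0.50 ± 0.46 log2 at 50 min and stood at 0.03 ± 0.08 at 230 min (SD, n = 3 time courses).

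**Figure D4:**
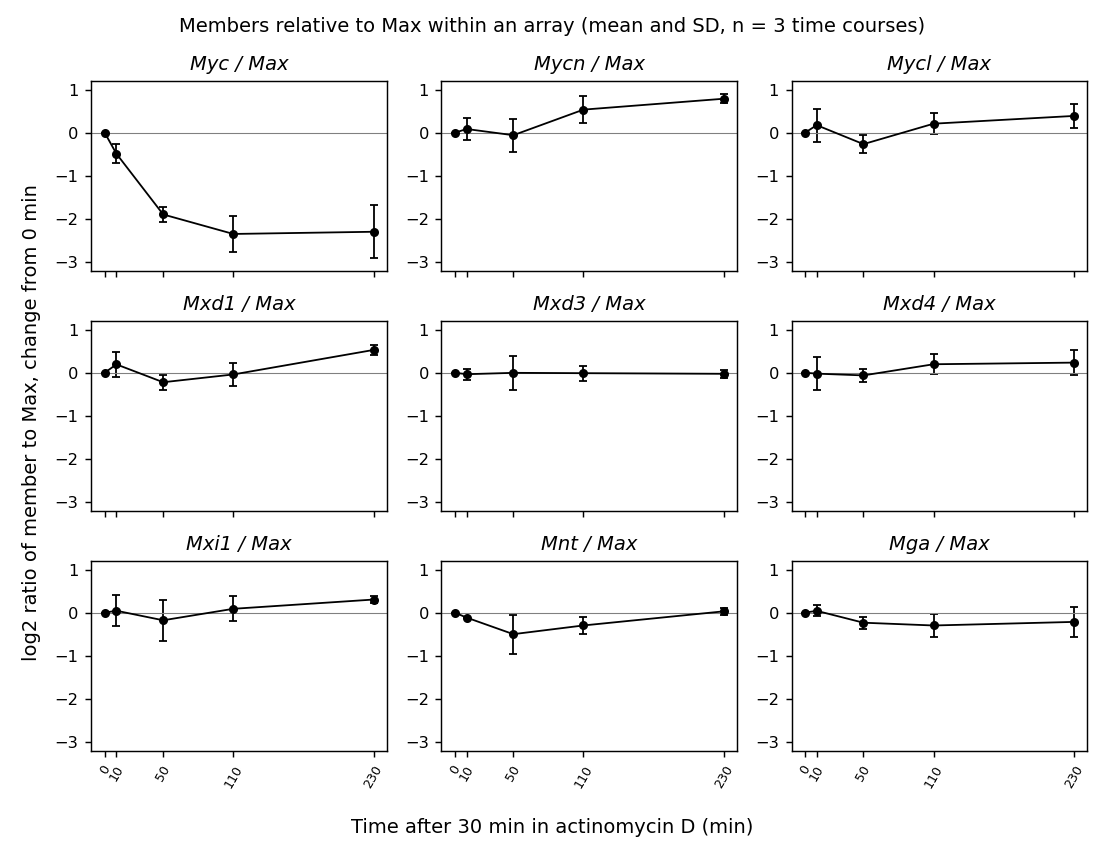
Change from 0 min of log2 of each member over Max on the same array, against time in min, as mean and SD over 3 time courses. Myc moved to -1.90 by 50 min, Mnt dipped to -0.50 at that time, and the means of Mxd3 lay between -0.04 and -0.003 with an SD of 0.39 at 50 min.

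The genes whose time pattern was most like that of each expressed member were taken by the root mean square difference of 12 log2 changes from 0 min, 4 times in 3 time courses, over 9878 other expressed genes, which share the same arrays. Nearest to Myc were Fbxo5, which encodes the mitotic regulator Emi1 (0.34 log2), Plk2, a polo-like kinase (0.43), and the histone gene H4f16 (0.48). Myc had 0 genes within 0.3 log2, whereas Mnt had 1005, Mga 2069, Max 3998 and Mxd4 4486. Nearest to Max were Rarg, Farp1 and Usp34 (0.09 to 0.10 log2), to Mycl Lpin1, Bbs7 and Zfp329 (0.13 to 0.15), to Mnt Zfp655, Bicra and Zfp787 (0.11 to 0.12) and to Mga Chd9, Daam1 and Sos1 (0.12). For Mxd1 they were Gorasp1, Uqcr11 and Vapb (0.13 to 0.14), for Mxd3 Zdhhc12, Uqcc3 and Rpain (0.11 to 0.12), for Mxd4 Nadk2, Hmg20b and Tmem161b (0.08 to 0.11), and for Mxi1 Bri3bp, Azin2 and Carnmt1 (0.11 to 0.12). The other expressed members thus had between 1005 and 4486 genes within that distance.

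The partners and regulators of the network were followed in 6 lists. Of 73 expressed genes in them 72 fell in the limma trend, close to the 96.4% of all expressed probe sets, and the counts below that are given for other scalings show how far this rests on the scaling. Of all expressed probe sets 37.8% fell with arrays divided by their median, and 15.7% fell and 50.0% rose with the 75th percentile. The Mxd and Mnt corepressors had 9 of 9 fallen and a median slope of -0.25 log2 per hr, the same as all expressed probe sets. With arrays divided by their median 4 fell, and with the 75th percentile 3 fell and 5 rose. Sin3a, the scaffold that Mxd proteins bind, had a slope of -0.62 ± 0.05 log2 per hr (SE), and Sap30, a subunit of the same complex, had -0.50 ± 0.05. Hdac1, a deacetylase of the complex, and Suds3, another of its subunits, were shallowest at -0.16 for both, while the related deacetylase Hdac2 had -0.31.

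The Myc cofactors had 16 of 16 fallen and a median slope of -0.32 log2 per hr (10 fell with arrays divided by their median, and 6 fell and 3 rose with the 75th percentile). Cdk9, the kinase that releases paused RNA polymerase II, was steepest at -0.60 ± 0.05 log2 per hr (SE), and Dmap1 followed at -0.42 ± 0.05. Trrap, a scaffold of acetyltransferase complexes that Myc recruits, had -0.24 and Ruvbl2, an ATPase of such complexes, had -0.20. The regulators of Myc protein turnover had 14 of 14 fallen and a median of -0.33 (9 fell with the median, and 5 fell and 3 rose with the 75th percentile). Trim32, a ubiquitin ligase, had -0.59 ± 0.05 log2 per hr and Fbxl14, a ligase adaptor, had -0.57 ± 0.05 (SE), while Pim2, a kinase, had -0.19 and Stub1, a chaperone-linked ligase, had -0.17. The Mlx branch, a parallel network in which Mlx takes the place of Max, had 2 expressed genes, Mlxip at -0.29 and Mlx at -0.25, both fallen, of which 1 fell with the median and 0 fell and 1 rose with the 75th percentile.

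Transcripts known as Myc targets had 26 of 27 fallen, with slopes from -0.77 to -0.07 log2 per hr and a median of -0.26. With arrays divided by their median 10 fell, and with the 75th percentile 7 fell and 14 rose. Gnl3, the nucleolar GTPase nucleostemin, had -0.77 ± 0.05 log2 per hr and Pprc1, a coactivator of mitochondrial genes, had -0.70 ± 0.06 (SE). Cdk4, a kinase of G1 progression, had -0.11, and Ldha, the glycolytic lactate dehydrogenase, was the one target not called, at -0.07 ± 0.05 (SE, limma adjusted p = 0.16). Transcripts known to be repressed by Myc had 5 of 5 fallen and a median of -0.21 (2 fell with the median, and 2 fell and 3 rose with the 75th percentile). Gadd45a, a growth arrest gene, had -0.45 ± 0.05 log2 per hr and Cdkn1b, the inhibitor p27, had -0.39 ± 0.05 (SE). Cdkn2b had -0.19 and Ndrg2 had -0.16. Transcription was blocked in all samples, and the response of the targets to Myc was not measured.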

How the data were processed

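The authors hybridized total RNA to 15 arrays and deposited linear ratios, each summarised probe set divided by the 5th percentile of its array. How probes were summarised and background was corrected was not given in the sources used here. Of 25175 probe sets 21044 had a single symbol in the platform annotation, 1492 several and 2639 none, and 20959 were matched by gene number to a RefSeq table of GRCm38.p6. No column was left without a sample, and at most 2.36% of values were identical between replicates.

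The members and lists were chosen with earlier results of these data known. Log2 ratios of 12544 expressed probe sets (9879 genes) were fitted in R 4.3.3 by limma 3.58.1, both against time as a line and with time as a factor against 0 min. The time course was a block, variances were moderated by eBayes, and p-values were adjusted by Benjamini-Hochberg with a threshold of 0.05. Mycn is given from the fit over all probe sets. Half-lives were nonlinear least squares fits of A·exp(-kt) in Python 3.11.15 (numpy 2.4.6, scipy 1.17.1), with the exponential model and the criteria taken from the study. The 95% interval was a profile interval, chosen here because the study names no type, so the count of reliable half-lives is specific to it. The detection filter of the study was replaced by the level filter. The slope of log2 of a member over Max was tested by exact permutation over 1728000 arrangements of the times within time courses. Its p-values were adjusted over all expressed probe sets, in place of over the members as first designed. Each kind of fit and test was checked on simulated data. Hdac2 and the values by time course were added after seeing the data. Named genes were all members, the 3 nearest to each expressed member, and the 2 steepest and 2 shallowest expressed genes of each list.

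Replicate numbers mark time courses that the study fitted separately. Deviations from the time means correlated over 0.1 in 29 of 30 same-numbered array pairs (median 0.362) and in 14 of 60 other pairs (median -0.216). The study ran the half-life experiment in triplicate, with 1 array for each time point. How far apart the 3 runs were in culture was not given in the sources used here, and no p-value measured the spread between them alone. The limma p-values took the time course as a block and used variances moderated over all probe sets in the fit. For Myc at 50 min the limma adjusted p was 8.8e-11, and 0.0029 with no level filter. For the slope of Myc in time it was 1.1e-16, and 2.6e-05 with no level filter. It was 3.1e-53 where the moderation of variances followed the mean level, with the same slope of -0.87 log2 per hr in all 3 fits. The permutation p-values rest on the order of times within time courses, and each half-life p on the fit to 1 time course. The number of arrays limits the precision. Alternatives covered scaling, block, level filter, pseudocount, variance model, decay model, times and replicates.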

Additional observations from a re-analysis of the deposited data

How the results depend on the processing

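The scaling of the arrays set most of the limits. Of 552 values recomputed under an alternative, over 69 results, 456 were labelled the same. A tested value had to keep its direction and side of the threshold, a half-life to stay within its spread and a count to stay within 1.5 times. Counts of 0 under both settings are among the 456. As deposited 9 members fell in the trend (96.4% of expressed probe sets did), and 5 fell with arrays divided by their median (37.8%). With the 75th percentile 2 fell (15.7%) and 4 rose (50.0%). With the median 3 fell at 110 min (17.0%) and 5 at 230 min (28.6%). With the 75th percentile 1 fell at each of these times (9.71% and 14.5%) and 2 rose at 230 min (43.9%). With the 75th percentile the slopes turned to 0.10 log2 per hr for Mycl, 0.12 for Mxd1, 0.073 for Mxd4, 0.083 for Mxi1 and 0.030 for Mnt, and that of Mycn to 0.22 (0.081 with the median). The changes at 230 min turned to 0.37 log2 for Mycl, 0.51 for Mxd1, 0.21 for Mxd4, 0.28 for Mxi1 and 0.010 for Mnt, and with the median to 0.045 for Mxd1. The change of Max at 50 min turned to 0.15 with the median and 0.12 with the 75th percentile, and ran from -0.14 to 0.10 leaving out 1 time course.

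Of the lists, with the median and the 75th percentile in turn, 1 and 0 genes of the Mlx branch fell, 10 and 6 cofactors, 4 and 3 corepressors, 9 and 5 turnover regulators, 10 and 7 targets and 2 and 2 repressed transcripts. With the 75th percentile 1, 3, 5, 3, 14 and 3 of them rose, in the same order. Of all expressed probe sets 37.8% and 15.7% fell in turn, and 50.0% rose with the 75th percentile.

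Without the replicate block the slope of Myc was the same, -0.87, and 9 members fell in the trend, 1 at 50 min, 8 at 110 min and 9 at 230 min, so the block moved no count of members by over 1.5 times. Over all 12544 expressed probe sets it did at 50 min, where 130 fell without it and 249 with it (trend 11975 and 12097, 110 min 9478 and 10633, 230 min 11324 and 11832). Without the 110 min array of time course 1 and the 230 min array of time course 2, chosen after seeing the data, 2 members fell at 50 min (Myc and Mnt) and 1 half-life was reliable. Over all expressed probe sets the number fallen at 50 min then rose from 249 to 1069. Their share with a reliable half-life in that setting is not given here.

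Reliable half-lives numbered 0 to 1 leaving out 1 time course, where both others had to pass, 1 with a straight line on log2 ratios, 0 with the 75th percentile and 0 without the 0 min arrays. The half-life of Myc was 70.5 min, 38.8 min and 40.4 min under the last 3 settings in that order, and ran from 23.9 to 31.1 min leaving out 1 time course. Against Max, 1 member was called as deposited, where 11.3% of expressed probe sets fell more steeply than Max and 37.6% less steeply. Leaving out 1 time course 0 to 2 members were called, and 3 on log2 of the ratio plus 1. The shares of all expressed probe sets under these alternatives are not given here. Leaving out 1 time course, the slope of Myc against Max ran from -0.61 to -0.46 log2 per hr (adjusted exact permutation p from 0.021 to 0.084). That of Mxd3 ran from -0.011 to 0.012, and was 0.020 on log2 of the ratio plus 1. Leaving out the last time gave 0.0030 for Mxd3, -0.086 for Mxd1 and -0.16 for Mnt. The cause of these changes was not tested. The mean over all probe sets of a gene was not run, since each member had 1.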
